A study of Rattus norvegicus with 12 samples.

Results

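Dmrt1, Sox2, Sall4, Lin28a, Tfap2c, Prdm1 and Sycp3 are 7 genes by which germ cells are specified, held in an undifferentiated state or recognised. Every probe set of the array that the annotation gives to 1 of these genes was taken, 10 of 31042 non-control probe sets, for 7 of 14224 genes named by a probe set with 1 symbol. Sox2 had 4 probe sets and each of the other genes had 1. The signal was measured in testes of rat embryos at embryonic day 16 on 12 Affymetrix arrays, 2 in each of 6 groups. The controls descended from females injected with sesame oil and DMSO, and the vinclozolin lineage from females injected with vinclozolin (100 mg/kg/day), both intraperitoneally on days 8 to 14 of pregnancy. Vinclozolin, used against fungi on crops, gives rise in the body to compounds that act as androgen receptor antagonists. F1 embryos were in the womb at dosing, whereas F2 and F3 embryos came from later matings within the lineages. In the label text, F2 and F3 vinclozolin parents are said to be from control lines, and the sample titles were taken as the guide to lineage. Each RNA was a pool of about 10 testes, of unstated litters, so the p-values measure the spread between pools. The strain was not given in the sources used here.

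Male germ cells of the fetal testis, the gonocytes, lie inside cords of Sertoli cells and leave the cell cycle late in gestation. Prdm1 and Tfap2c are transcription factors that specify primordial germ cells. Sall4, Sox2 and the RNA-binding protein Lin28a belong to the pluripotency programme that these cells share with embryonic stem cells. Lin28a blocks the maturation of the let-7 microRNAs. Dmrt1 is a DM-domain transcription factor of both Sertoli and germ cells that restrains pluripotency genes and maintains male fate. Sycp3 is a component of the synaptonemal complex of meiosis, and its RNA is already made in fetal germ cells. In whole testis RNA, fewer cells of a type and less RNA per cell cannot be told apart.

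Promoter sequences were read from RefSeq (GRCr8) for 5 of the 7 genes, as 250 bases before to 50 bases after the gene's start. Those of Dmrt1 and Sox2 are shown because these 2 genes held the probe sets whose lineages did not overlap. Capitals mark matches on either strand to the GC box GGGCGG, the CCAAT box and the TATA box TATAAA. The Dmrt1 window lies at chr1:232568929-232569228 and the Sox2 window at chr2:119464881-119465180, both on the plus strand.
Dmrt1: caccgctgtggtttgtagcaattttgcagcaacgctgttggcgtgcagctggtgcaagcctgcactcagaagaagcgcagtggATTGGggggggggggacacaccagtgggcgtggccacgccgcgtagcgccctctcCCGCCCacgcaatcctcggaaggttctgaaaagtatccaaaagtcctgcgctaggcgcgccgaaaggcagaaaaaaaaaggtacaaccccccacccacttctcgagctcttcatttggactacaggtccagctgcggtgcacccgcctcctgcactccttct
Sox2: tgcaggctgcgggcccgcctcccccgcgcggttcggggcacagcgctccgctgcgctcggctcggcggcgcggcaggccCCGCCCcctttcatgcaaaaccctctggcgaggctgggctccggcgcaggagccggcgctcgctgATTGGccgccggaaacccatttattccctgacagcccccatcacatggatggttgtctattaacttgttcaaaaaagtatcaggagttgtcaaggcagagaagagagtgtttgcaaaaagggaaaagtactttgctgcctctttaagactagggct
Each window held 1 GC box, 1 CCAAT box and 0 TATA boxes, with no overlap between matches. The matches lay on the minus strand, so the printed letters are the reverse complements. Of 33469 promoters of this length, 33.06% held the GC box, 37.49% the CCAAT box and 14.22% the TATA box. GC content was 59.7% in the Dmrt1 window and 60.7% in the Sox2 window. The matches describe the letters only.

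Several measures of the arrays moved with lineage and are given here once. The ratio of the 5' to the 3' probe set of beta-actin, a measure of RNA integrity, was 0.423 to 0.471 on control arrays. On vinclozolin arrays it was 0.149 to 0.192 in F1, 0.219 to 0.247 in F2 and 0.360 to 0.395 in F3. The same ratio for GAPDH was 0.959 to 1.02 on control arrays. It was 0.651 to 0.718 in F1, 0.721 to 0.800 in F2 and 0.970 to 1.02 in F3 vinclozolin, so in F3 it did not stand below controls. Array medians were lower on vinclozolin arrays, by 0.12, 0.12 and 0.05 on the log2 scale in F1, F2 and F3. Markers of Sertoli cells (7 of 8 genes on the array, all past the filter) summed to 6518 to 6886 on control arrays and to 5773 to 6818, 7087 to 7209 and 6031 to 6416 on F1, F2 and F3 vinclozolin arrays, counting the brightest probe set of each gene, with Amh the largest. Of all 10 Sertoli probe sets 4 were called lower and 1 higher in F1, 2 and 0 in F2 and 0 and 0 in F3. Those called lower in F1 included dimmer second probe sets of Wt1 (−1.20), Gata4 (−1.05) and Cldn11 (−0.95), whose brighter probe sets were not called (−0.11, −0.08 and 0.20). The remaining one was the single probe set of Inhbb (−0.44, limma, adjusted p = 0.0215), with a mean signal of 669 in F1 control and 495 in F1 vinclozolin. Of 8 germ cell markers only Kit and Nanos3 were named on the array, so the germ cell content was checked on 2 genes. Their summed signal was 93.6 to 119.8 on control arrays, and 45.4 to 59.7, 70.9 to 81.6 and 89.7 to 104.7 on F1, F2 and F3 vinclozolin arrays. Nanos3 alone ran from 29.1 to 46.1 on control arrays and from 39.5 to 55.2 on vinclozolin arrays. Erythroid markers (5 of 5 past the filter) summed to 1670 to 2034 on control arrays and to 2344 to 3609 on vinclozolin arrays, and fetal Leydig cell markers (6 of 6) to 11273 to 11931 and to 12256 to 14532. Of the 8 Leydig probe sets 1 was called higher and 3 lower in F1, 2 and 2 in F2, and 2 and 0 in F3. Those lower in F1 were both probe sets of Lhcgr (−1.42 and −0.41) and the dimmer one of Star (−0.66). Secretory genes of the ventral prostate (3 of 3 past the filter) summed to 4.3 to 21.5 on control arrays, 34.0 to 54.6 in F1, 55.0 to 62.0 in F2 and 613.7 to 749.7 in F3 vinclozolin. The parts of RNA integrity and of these cell markers in the results below were not tested.

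**Figure D1:**
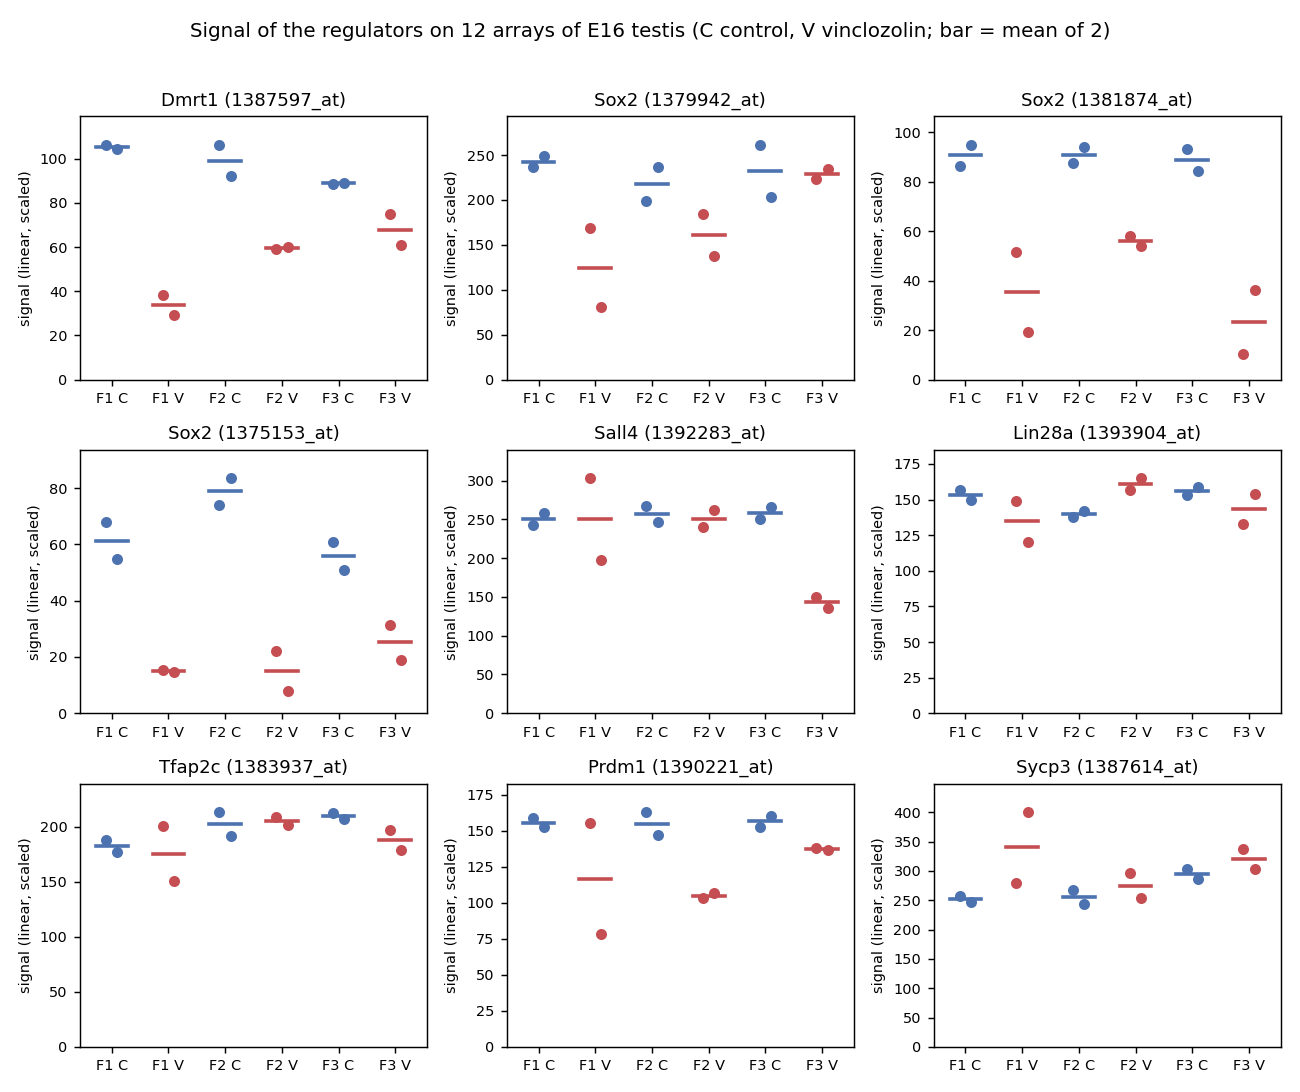
Linear signal (scaled by the authors) of the 9 tested probe sets on each array, control in blue and vinclozolin in red, points being arrays and bars the mean of 2. Dmrt1 and Sox2 (1381874_at and 1375153_at) lie lower on every vinclozolin array than on every control array, while Sall4 is lowest on the 2 F3 vinclozolin arrays (150.1 and 136.3), F1 vinclozolin replicate 2 (197.1) being the next lowest.

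Dmrt1 (1387597_at) was lower on every vinclozolin array than on every control array. Its signal was 105.9 and 104.2 on the F1 control arrays, 106.3 and 91.9 on the F2 control arrays and 88.5 and 89.1 on the F3 control arrays. On the vinclozolin arrays it was 38.4 and 29.3 in F1, 59.3 and 59.9 in F2 and 74.7 and 61 in F3. The group means thus ran from 105 in F1 controls through F2 and F3 controls to F3 vinclozolin (67.9), F2 vinclozolin (59.6) and F1 vinclozolin (33.9), and of the neighbours in that order only F1 and F2 controls overlapped. Dmrt1 fell by 1.29 ± 0.14 in F1 (log2 difference of signal + 16 ± SE, 2 arrays per group, as for all differences below; limma, adjusted p = 2.77e-05), a control signal 3.10 times that of vinclozolin. It fell by 0.60 ± 0.14 in F2 (adjusted p = 0.0117), and the F3 difference of −0.33 ± 0.14 did not pass (adjusted p = 0.237). Over the mean of the 3 generations it fell by 0.74 ± 0.08 (adjusted p = 1.16e-05), in 6 of 6 vinclozolin arrays.

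The size of the Dmrt1 difference depended on generation (F test, adjusted p = 0.0405), which 2.6% of all probe sets also passed. That call was lost in 12 of 19 alternative settings, among them leaving out any 1 of the 6 control arrays or of F1 vinclozolin replicate 2 (adjusted p = 0.0622 to 0.171 over these 7). The F2 call was lost without F2 control replicate 1 (adjusted p = 0.121) and without F2 vinclozolin replicate 2 (adjusted p = 0.0643). The beta-actin ratio and the summed germ cell markers of the vinclozolin groups stood in the same order, F1 lowest and F3 highest.

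Sox2 codes for an HMG-box transcription factor of pluripotent cells and of neural and Schwann cell progenitors. It is a single-exon gene that lies within a longer non-coding transcription unit, so probe sets annotated to it may not all measure the coding transcript. The positions of its 4 probe sets on the transcript were not analysed here. The 3 that were tested were all called lower in F1. In each of F2 and F3, 1 of the 3 pairs among them was called as changing unequally.

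Sox2 at 1375153_at had the largest mean difference of its tested probe sets, −1.26 ± 0.13 over the 3 generations (adjusted p = 4.75e-06). Its signal was 67.9 and 54.7 on F1 control arrays, 74.1 and 83.5 on F2 control arrays and 60.9 and 50.9 on F3 control arrays. The vinclozolin arrays gave 15.3 and 14.7 in F1, 22.1 and 7.8 in F2 and 31.5 and 18.8 in F3. All 6 vinclozolin arrays lay below all 6 control arrays. In F1 it fell by 1.31 ± 0.22 (adjusted p = 6.50e-04) and in F2 it fell by 1.65 ± 0.22 (adjusted p = 2.44e-04). The signals of 14.7 in F1 and 7.8 in F2 were under the limit of the dim filter (14.8), so no fold of signals is given. In F3 the difference was −0.82 ± 0.22 (adjusted p = 0.0572). That value passed in 8 of 20 alternative settings, the lowest adjusted p being 0.00823 with array weights and the highest 0.382.

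Sox2 at 1381874_at was nearly level over the control groups and lowest in F3 vinclozolin. The control arrays gave 86.4 and 95 in F1, 87.5 and 93.9 in F2 and 93.3 and 84.5 in F3. The vinclozolin arrays gave 51.8 and 19.2 in F1, 57.9 and 54.2 in F2 and 10.5 and 36.4 in F3, again all below the lowest control array. It fell by 1.13 ± 0.28 in F1 (adjusted p = 0.0100) and by 1.49 ± 0.28 in F3 (adjusted p = 0.0119), and the F2 difference of −0.57 ± 0.28 did not pass (adjusted p = 0.205). The F1 call was lost without F1 control replicate 2 (adjusted p = 0.0722) and without F1 vinclozolin replicate 2 (−0.65, adjusted p = 0.130). The F3 call was lost without F3 control replicate 1 or 2 (adjusted p = 0.140 and 0.0974) or without F3 vinclozolin replicate 1 (−1.0, adjusted p = 0.106). Both F3 vinclozolin arrays were those with the high ventral prostate genes.

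Sox2 at 1379942_at was called lower in F1, and its dependence on generation was not called (F test, adjusted p = 0.228). Control arrays gave 236.9 and 248.4 in F1, 198.9 and 236.7 in F2 and 261.6 and 203.5 in F3. Vinclozolin arrays gave 168.4 and 81.1 in F1, 184.4 and 138.1 in F2 and 223.8 and 234.5 in F3, so the F3 groups overlapped. It fell by 0.95 ± 0.22 in F1 (adjusted p = 0.00601), and this call was lost without F1 vinclozolin replicate 2 (−0.49, adjusted p = 0.0566). The F2 difference was −0.41 ± 0.22 (adjusted p = 0.242). In F3 it was −0.01 ± 0.22, with a 95% interval from −0.48 to 0.46. The fourth probe set, 1389826_at, gave 0.4 to 1.7 on all 12 arrays, was removed by the filter on dim probe sets and says nothing about either lineage.

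**Figure D2:**
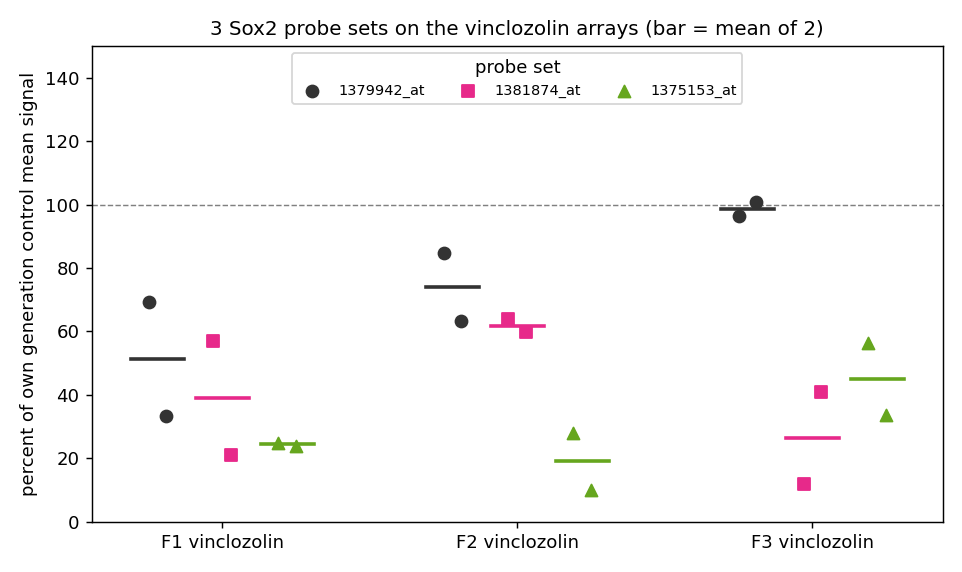
Signal of 3 Sox2 probe sets on each vinclozolin array as a percentage of the mean of the 2 control arrays of the same generation (dashed line at 100; bars, mean of 2). In F3 the arrays stand at 96.2% and 101% for 1379942_at, 11.8% and 40.9% for 1381874_at, and 56.4% and 33.6% for 1375153_at.

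The disagreement between Sox2 probe sets was tested on the difference of their log2(signal + 16) values within each array, over all 6160 pairs of tested probe sets of 1 gene. In F3, the change of 1379942_at exceeded that of 1381874_at by 1.48 ± 0.25 on this scale (adjusted p = 0.0150), and 2.34% of all pairs were called in F3. The value moved with the pseudocount, to 1.93 at 4 and 0.81 at 64, and was called at both (adjusted p = 0.0458 and 0.00171). On F3 vinclozolin replicate 1 the signal of 1381874_at was 10.5, under the limit of the dim filter (14.8). Leaving out F3 control replicate 1 or 2 or F3 vinclozolin replicate 1 ended this call (adjusted p = 0.141, 0.124 and 0.0652). In F1 and F2 the same pair differed by 0.18 ± 0.25 and 0.16 ± 0.25 (adjusted p = 0.615 and 0.667), and the dependence on generation was not called (F test, adjusted p = 0.0750, against 1.14% of pairs called). Not called in F3 were the pairs of 1379942_at with 1375153_at (0.81 ± 0.27, adjusted p = 0.143) and of 1381874_at with 1375153_at (−0.67 ± 0.40, adjusted p = 0.413). For the mean of the generations 2 of 3 Sox2 pairs were called, both with 1379942_at, against 48.7% of all pairs.

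In F2 it was 1379942_at and 1375153_at that changed unequally, by 1.25 ± 0.27 (adjusted p = 0.00607). It was 1.80 with a pseudocount of 4 and 0.53 with 64, called at both (adjusted p = 0.00781 and 0.0189). The pair of 1381874_at with 1375153_at, at 1.09 ± 0.40, was not called in F2 (adjusted p = 0.0627). The share of all pairs called in F2 was 29.7%, so unequal change of 2 probe sets of a gene was common in that generation. Without F2 vinclozolin replicate 2 the call was lost (adjusted p = 0.0522). In F1, 0 of 3 Sox2 pairs were called with limma, and 0 had an unadjusted p under 0.05, against 37.3% of all pairs called. Leaving out F1 vinclozolin replicate 2 brought the pair of 1379942_at and 1375153_at past the threshold in F1 (0.81, adjusted p = 0.0317).

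Over the 12 arrays the log2 signals of the 3 Sox2 probe sets correlated with Pearson r of 0.489 (1379942_at with 1381874_at), 0.660 (1379942_at with 1375153_at) and 0.639 (1381874_at with 1375153_at). The median r of all pairs of a gene was 0.149, with quartiles at −0.224 and 0.501. Within the 6 vinclozolin arrays the same 3 values were 0.0639, 0.573 and −0.565. These are descriptions over arrays that share lineage and scaling.

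Sox2 is also expressed in Schwann and neural cells. Of 9 marker genes of these cells 7 were on the array and 5 passed the filter. The defining markers Sox10 and Foxd3 did not pass, at 2.3 to 27.2 and 0.6 to 14.3 on all arrays. With the brightest probe set of each gene, the list summed to 201.5 to 243.3 on control arrays, 142.8 to 268.8 in F1, 174.5 to 181.8 in F2 and 180.5 to 200.9 in F3 vinclozolin. Of the 6 tested probe sets 2 rose and 1 fell in F1, 0 rose and 1 fell in F2, and with limma 0 were called in F3. Mbp, a myelin protein gene, rose by 2.40 ± 0.29 in F1 at 1368810_a_at, from a mean signal of 20.1 to 193 (adjusted p = 5.09e-05), while at its brighter probe set, which entered the sum, it stood at −0.40 ± 0.18 (adjusted p = 0.138). Gfap, an intermediate filament gene of glia, rose by 0.85 ± 0.27 in F1 (adjusted p = 0.0346), and Erbb3, a neuregulin receptor gene, fell by 1.04 ± 0.18. The part of these cells in the Sox2 values was not tested.

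Sall4 (1392283_at), a zinc-finger factor that works with the pluripotency network, was lowest in F3 vinclozolin. Control arrays gave 242.3 and 258.2 in F1, 267.6 and 246.5 in F2 and 250.9 and 265.6 in F3. Vinclozolin arrays gave 303.0 and 197.1 in F1, 239.8 and 262.0 in F2 and 150.1 and 136.3 in F3, and both F3 arrays lay below all 10 others. Sall4 fell by 0.79 ± 0.15 in F3 (adjusted p = 0.0113), the control signal being 1.80 times that of vinclozolin. In F1 and F2 the differences were −0.03 ± 0.15 in each, with 95% intervals from −0.35 to 0.29 and from −0.35 to 0.28. The 2 F1 vinclozolin arrays lay on either side of the controls, and the F1 difference was −0.32 without replicate 1 (adjusted p = 0.0385) and 0.26 without replicate 2 (adjusted p = 0.126).

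The F test of whether the Sall4 difference depended on generation missed the threshold (adjusted p = 0.0805). It passed in 4 of 19 alternative settings, without F1 vinclozolin replicate 1 or 2 (adjusted p = 0.00453 and 0.00235), with array weights (adjusted p = 0.0112) and with median centring (adjusted p = 0.0458). The F3 call was lost when any 1 of the 4 F3 arrays was left out (adjusted p = 0.0527 to 0.147), the difference staying between −0.85 and −0.72. The beta-actin ratio of the F3 vinclozolin arrays, 0.360 to 0.395, was the nearest of the 3 vinclozolin groups to that of controls, and the ventral prostate genes were highest on these same arrays.

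Prdm1 (1390221_at), the repressor also known as Blimp1, was called lower in vinclozolin over the generations together, with no call in a single generation. Control arrays gave 158.5 and 152.6 in F1, 163.1 and 146.7 in F2 and 152.7 and 160.2 in F3. Vinclozolin arrays gave 155.0 and 78.6 in F1, 103.0 and 106.9 in F2 and 138.2 and 136.9 in F3, so that 5 of 6 lay below the lowest control array. The mean of the 3 differences fell by 0.37 ± 0.11 (adjusted p = 0.0187). The single differences were −0.43 ± 0.19 in F1, −0.50 ± 0.19 in F2 and −0.17 ± 0.19 in F3 (adjusted p = 0.119, 0.0971 and 0.705). The F1 difference was −0.86 without F1 vinclozolin replicate 1 (adjusted p = 1.09e-04) and −0.0044 without replicate 2 (adjusted p = 0.987), so it rested on 1 array. The F2 difference passed in 4 of 20 alternative settings, with array weights (adjusted p = 0.0246), with only the 4 F2 arrays (adjusted p = 0.0188) and without F1 vinclozolin replicate 1 or 2 (adjusted p = 0.00262 and 0.00233). The mean was no longer called with median centring (adjusted p = 0.0529) or without F2 control replicate 1 (adjusted p = 0.0557), and it was −0.22 without F1 vinclozolin replicate 2 (adjusted p = 0.0108).

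Tfap2c (1383937_at), the AP-2 gamma factor that acts beside Prdm1 in primordial germ cells, showed no difference past the threshold. Its control arrays ran from 177.1 to 213.6 with a median of 199.4, and its vinclozolin arrays from 150.3 to 208.5 with a median of 199.2. The mean difference was −0.06 ± 0.07, with a 95% interval from −0.22 to 0.09 (adjusted p = 0.546). Lin28a (1393904_at) ran from 138.0 to 158.9 on control arrays and from 120.3 to 165.0 on vinclozolin arrays, with a median of 151.4 in both lineages. Its mean difference was −0.03 ± 0.07, with an interval from −0.18 to 0.11 (adjusted p = 0.748). The single generations lay between −0.17 and 0.18 for Lin28a and between −0.14 and 0.02 for Tfap2c. With the 6 groups ranked by mean, each overlapped the next for both genes. Within a generation, the lineages did not always overlap. Lin28a was 149.8 and 156.8 in F1 control against 120.3 and 149.0 in F1 vinclozolin. In F2 it went the other way, 138.0 and 141.7 against 156.9 and 165.0. Tfap2c was 206.8 and 212.1 in F3 control against 179.3 and 197.4 in F3 vinclozolin.

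Sycp3 (1387614_at) was the only member whose mean difference was above 0. Control arrays gave 256.5 and 246.5 in F1, 266.6 and 243.6 in F2 and 303.9 and 285.6 in F3. Vinclozolin arrays gave 279.1 and 400.7 in F1, 296.3 and 253.7 in F2 and 337.1 and 303.9 in F3, and the lineages overlapped. The mean difference was 0.20 ± 0.08 (adjusted p = 0.0660). It was called with median centring (0.30, adjusted p = 0.0113), with array weights (adjusted p = 0.0333) and without F1 vinclozolin replicate 1 (0.28, adjusted p = 0.00123). In F1 it was 0.39 ± 0.14 (adjusted p = 0.0546), which became 0.64 (adjusted p = 6.25e-04) without F1 vinclozolin replicate 1 and 0.14 (adjusted p = 0.450) without replicate 2, and 0.51 (adjusted p = 0.0177) with median centring. In F2 and F3 it was 0.10 ± 0.14 and 0.11 ± 0.14.

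**Figure D3:**
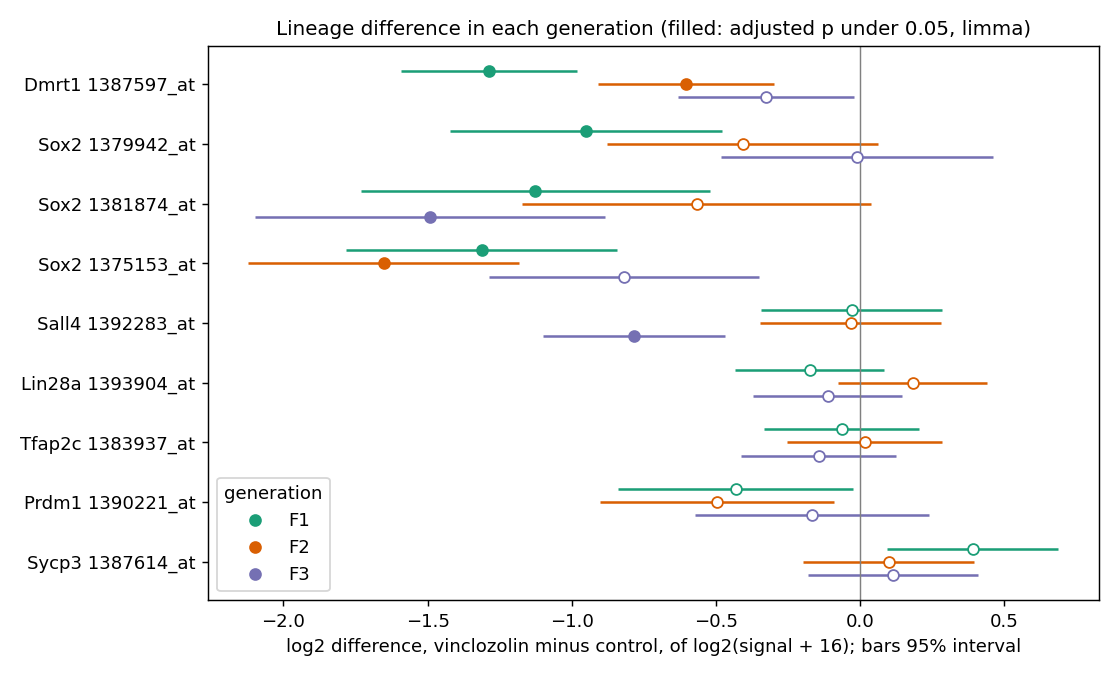
Log2 difference, vinclozolin minus control, of each tested probe set in F1, F2 and F3 with its 95% interval, filled where the limma adjusted p is under 0.05. Filled points, all at negative differences, belong to Dmrt1 in F1 and F2, to Sox2 and, in F3, to Sall4, and Lin28a and Tfap2c lie near 0.

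Of the 9 probe sets past the filter, 4 were called lower in F1, 2 in F2 and 2 in F3. Over all 21729 tested probe sets 13.7%, 9.65% and 2.06% were called lower in the same comparisons. With limma 0 of 9 were called higher in each generation, beside 9.41%, 4.7% and 1.05% of all. For 9 probe sets, 0 is near these shares. At an unadjusted p under 0.05 Sycp3 in F1 was the only one higher, and the share of all higher at that p is not given here. The median difference of the 9 was −0.43 in F1, −0.41 in F2 and −0.17 in F3, beside −0.01 over all tested probe sets in each. For the mean of the generations 6 of 9 were called lower, against 19.2% of all, and 0 of 9 higher, against 14.1%. The Sall4 call among these was lost in 5 of 19 alternative settings (highest adjusted p = 0.0797). Lineages that did not overlap, vinclozolin below control, were seen in 3 of 9 and in 7.73% of all, and the reverse in 0 of 9 and in 5.52%. The members were chosen with earlier results of these data known, so an excess over these shares is no independent support. Several of the 9 probe sets belong to Sox2, so the counts are not of separate genes.

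No member was called as differing between control generations, although some control groups did not overlap. Sox2 at 1375153_at gave 74.1 and 83.5 in F2 controls, above 50.9 to 67.9 in the other controls. Sycp3 gave 285.6 and 303.9 in F3 controls, above 243.6 to 266.6 in the other controls. With 2 arrays per group the test cannot show the control groups to be level. The F test over the 3 control groups called 0 of 9 with limma, 0 of 9 had an unadjusted p under 0.05, and 0% of all probe sets were called, although 517 of 21729 had an unadjusted p under 0.05. The coefficient of variation was 3.88% to 18.8% over the 6 control arrays and 11.3% to 51.7% over the 6 vinclozolin arrays. It was the larger on vinclozolin arrays for 9 of 9, and the share over all probe sets is not given here. Differences between generations are part of this spread. Over all tested probe sets, replicates correlated with r of 0.990, 0.989 and 0.993 in F1, F2 and F3 control. In vinclozolin r was 0.976, 0.983 and 0.987.

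Part of the spread lay between the 2 arrays of F1 vinclozolin. Replicate 2 was below replicate 1 for 8 of 9 probe sets, Sycp3 being above, while 53.9% of all tested probe sets were below. The median of replicate 2 minus replicate 1 was −0.38 for the 9 and −0.03 for all tested probe sets on the log2 scale. The F1 difference of Dmrt1 was −1.15 without replicate 2 and −1.42 without replicate 1. Without replicate 2 that of Sox2 was −0.49 at 1379942_at and −0.65 at 1381874_at. At 1375153_at the 2 F1 vinclozolin arrays agreed within 0.6 signal units. The number of F1 calls changed when either replicate was left out. It is not given, since 1 array is then left in the group and the share over all probe sets is not at hand.

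The genes whose pattern over the 12 arrays was most like that of each member were found by Pearson correlation among 15778 or more single-gene probe sets. All of these genes lay outside the other germ line lists, which held only 27 tested probe sets. For Dmrt1 they were Tank (r = 0.991), Ywhab (r = 0.988) and Apc (r = 0.984). For Sall4 they were Patz1 (r = 0.969), Tjp3 (r = 0.961) and Maz (r = 0.951), and for Sox2 at 1379942_at Mex3c (r = 0.967), Lemd3 (r = 0.962) and Cbfa2t2 (r = 0.961). Prdm1 was nearest to Degs1 (r = 0.949), Syne1 (r = 0.946) and Tp53rka (r = 0.940), and Sycp3 to Ndufaf4 and Metap1d (r = 0.954 each) and Lims1 (r = 0.939). Lin28a was nearest to Tead4 (r = 0.942), Slc49a4 (r = 0.909) and Wsb2 (r = 0.906), and Tfap2c to Fam120a (r = 0.917), Calcrl (r = 0.906) and Ice1 (r = 0.891). The arrays share lineage and scaling, and these values only describe.

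Of 56 other gene symbols in lists drawn up for the germ line and for the Lin28 and let-7 axis, 27 were named on the array. Of these, 20 had a probe set past the filter, 27 probe sets in all. Pou5f1, Nanog, Ddx4, Dazl, Dnd1 and Nanos2 were not analysed here. In F1, 11 of the 27 probe sets were called lower and 3 higher, in F2 8 and 2, and in F3 3 and 1. The Lin28 and let-7 axis held 6, 5 and 2 of these lower calls in F1, F2 and F3. Over all tested probe sets 13.7%, 9.65% and 2.06% were called lower and 9.41%, 4.7% and 1.05% higher in F1, F2 and F3, and the counts of the lists below are to be read beside these shares. The median difference of the 27 was −0.19, −0.10 and −0.26, beside −0.01 over all in each generation.

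Among genes of primordial germ cells and gonocytes 9 probe sets were tested, of which 4, 3 and 1 fell in F1, F2 and F3 and 1, 0 and 1 rose. Kit, the receptor for stem cell factor on migrating and gonadal germ cells, fell by 1.86 ± 0.26 in F1, fell by 1.02 ± 0.26 in F2 and stood at −0.34 ± 0.26 in F3 (adjusted p = 1.42e-04, 0.0154 and 0.525). Elavl2, an RNA-binding protein gene, was called lower at 1381677_at in all 3 generations (−1.41 ± 0.19, −2.09 ± 0.19 and −0.86 ± 0.19). Its other 2 probe sets, 1383736_at and 1383768_at, lay between −0.15 and 0.21 and were not called. They were the brighter ones, with F1 control means of 637 and 1016 against 95.5 at 1381677_at. Ifitm3, an interferon-induced transmembrane protein gene expressed in early germ cells, rose by 0.44 ± 0.08 in F1 (adjusted p = 0.00151) and by 0.37 ± 0.08 in F3 (adjusted p = 0.0278), with 0.25 ± 0.08 in F2 (adjusted p = 0.0518). Sox17 was also called lower in F1 (−0.69 ± 0.17, adjusted p = 0.00779) and F2 (−0.70 ± 0.17, adjusted p = 0.0114), with −0.49 ± 0.17 in F3 (adjusted p = 0.127). Taf4b was called lower in F1 (−0.62 ± 0.12, adjusted p = 0.00227), with −0.37 ± 0.12 in F2 and −0.42 ± 0.12 in F3 (adjusted p = 0.0559 and 0.0800). Nanos3, an RNA-binding protein gene that protects primordial germ cells from death, gave 0.14, 0.12 and 0.38 and was not called.

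The axis of Lin28 and let-7 had the most calls of these lists in F1 and F2, although Lin28a itself had none: of 10 probe sets 6, 5 and 2 fell and 2, 2 and 0 rose in F1, F2 and F3. Tut4, the terminal uridylyltransferase that Lin28a recruits to pre-let-7, was called lower in F1, F2 and F3, at −0.83 ± 0.11, −0.81 ± 0.11 and −0.96 ± 0.11 (adjusted p = 8.38e-05, 2.37e-04 and 2.72e-04). Its signal was 407.7 to 507.0 on control arrays and 227.8 to 266.4 on vinclozolin arrays. Dicer1, the nuclease that cuts pre-miRNAs, was called lower at 1394715_at in F1 (−1.23 ± 0.19) and F2 (−0.72 ± 0.19). Its other probe set, 1398643_at, was not called (−0.42, −0.03 and −0.26). That probe set was the brighter, with an F1 control mean of 235 against 131.

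The 3 Igf2bp genes, which code for RNA-binding proteins and are known let-7 targets, differed in direction. Igf2bp1 fell by 1.09 ± 0.15 in F1, fell by 1.07 ± 0.15 in F2 and stood at −0.54 ± 0.15 in F3 (adjusted p = 1.37e-04, 3.42e-04 and 0.0630). Igf2bp3 was called lower at 1390860_at in the 3 generations (−0.80 ± 0.13, −0.99 ± 0.13 and −0.68 ± 0.13) and at 1377824_a_at in F1 and F2 (−1.18 ± 0.19 and −1.15 ± 0.19). At 1393202_a_at Igf2bp3 gave 0.09, 0.26 and 0.04 and was not called. This was its brightest tested probe set, with an F1 control mean of 440 against 136 at 1390860_at and 75.1 at 1377824_a_at. Both probe sets of Igf2bp2 rose in F1 and F2, 1382220_at by 0.44 ± 0.08 and 0.48 ± 0.08 and 1382609_at by 0.55 ± 0.17 and 0.56 ± 0.17.

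The remaining lists held few tested genes. Of pluripotency genes 3 of 11 were on the array and 2 tested, Esrrb and Klf4, and with limma 0 were called in any generation (F1 −0.30 and −0.03, F2 0.17 and 0.31, F3 0.14 and 0.35, in that order). Of meiotic genes 3 were tested at 4 probe sets, Smc1b, Smc3 and Sycp2, and 0 were called, the differences lying between −0.47 and 0.29. Of the relatives of Sall4 and Dmrt1, Sall1 fell by 0.60 ± 0.19 in F1 (adjusted p = 0.0370) and Sall2 gave 0.20, 0.06 and 0.04.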

How the data were processed

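The authors deposited 1 intensity on a linear signal scale for each of 31099 probe sets and each array, from 0 to 9534.9. Array labelling was by standard Affymetrix procedures, per the labels' protocols; the summarising software was not given in the sources used here. Trimmed means were nearly equal on the 12 arrays, as after scaling of each array to a common target. The 57 control probe sets were left out. Values were transformed as log2(signal + 16), which understates the changes of dim probe sets. The dimmest 30% (9313, below a signal of about 14.8) were not tested. Group means of the 12 arrays were fitted by limma (version 3.58.1; R version 4.3.3) with eBayes and a trend (6 residual and 8.97 prior degrees of freedom), with Benjamini-Hochberg adjustment over 21729 probe sets and a threshold of 0.05. Exact permutation of 2 against 2 arrays cannot go below p = 0.333. Within-gene pairs were fitted as differences of these log2 values over 6160 pairs (eBayes without trend). Probe sets were named by the array annotation (20837 with 1 symbol, 425 with several, 9780 with none); the 10 members' gene identifiers were in the current gene table with symbols unchanged. The code was tested on simulated data. All members' probe sets are named; other germ line genes are named by rule, the called ones with the largest changes, at most 4 per direction. The others given with them (further probe sets of a named gene, further called or uncalled genes of a list, single marker genes) were picked after their values were seen. The members and lists were chosen with earlier results of these data known. Same-numbered replicates did not deviate together (correlations of −0.020, −0.043 and 0.027 in F1, F2 and F3).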

Additional observations from a re-analysis of the deposited data

Results flagged for a closer look

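The lineage difference of Dmrt1 (1387597_at) differed between generations by the F test of the interaction (limma, adjusted p = 0.0405). This call was lost in 12 of 19 alternative settings. The difference was −1.29 in F1, −0.60 in F2 and −0.33 in F3, and the mean beta-actin ratio of the same vinclozolin groups was 0.171, 0.233 and 0.378. The part of the beta-actin ratio was not tested.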

How the results depend on the processing

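Of 1206 recomputed values of single probe sets and pairs, 1110 kept their direction and side of the threshold. None of the 327 for called results changed sign. Part of this was fixed by the fits, so the counts overstate stability. Leaving out an array could not change the differences of the other generations. Omitting the filter, array weights, the replicate block and using only the arrays of the generation could change p-values but not the differences. F tests, which have no sign, were also counted. In all, 25 values changed sign, all of them of uncalled results. With quantile normalization these were Sox2 at 1379942_at in F3 (0.020) and Lin28a in the mean (0.013). With median centring they were Sall4 in F1 (0.086) and F2 (0.082), Tfap2c in F1 (0.052) and the mean (0.032), Sox2 at 1379942_at in F3 (0.044) and Lin28a in the mean (0.061). With a pseudocount of 64 they were the F1 pairs of Sox2 at 1379942_at with 1381874_at (−0.084) and with 1375153_at (−0.076). Leaving out 1 array gave ranges that crossed 0 for Sall4 in F1 (−0.32 to 0.26) and F2 (−0.093 to 0.027), Tfap2c in F1 (−0.26 to 0.13), F2 (−0.055 to 0.088) and the mean (−0.13 to 3.27e-04), Lin28a in the mean (−0.081 to 0.011), Sox2 at 1379942_at in F3 (−0.18 to 0.16), Sycp3 in F2 (−0.0062 to 0.21) and the Sox2 pairs of 1379942_at with 1375153_at in F1 (−0.086 to 0.81) and of 1381874_at with 1375153_at in F1 (−0.27 to 0.65) and F3 (−1.39 to 0.043).

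Counts of called members were 4, 2 and 2 in F1, F2 and F3 and 6 for the mean. Without 1 array they ran from 2 to 7, 1 to 4, 0 to 3 and 4 to 7, the count for dependence on generation (1) from 0 to 5, and called Sox2 pairs from 0 to 1 in F1, 0 to 2 in F2 and 0 to 1 in F3. With only the 4 arrays of the generation F2 had 4 calls and 2 Sox2 pairs. Dependence on generation had 2 calls with median centring, 2 with array weights, 0 with a pseudocount of 64 and 0 without the filter, and F2 had 2 called pairs with a pseudocount of 64. With the replicate number as a block the counts were 4, 2 and 3, Sox2 at 1375153_at in F3 being added (adjusted p = 0.0375). The causes were not tested. The number of arrays, 2 per group, limits the precision.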
